A study of Mus musculus with 6 samples.

Results

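Transcript levels of 10 genes that encode neuronal regulators of splicing and of RNA handling were followed in cultured mouse cerebellar granule neurons (CGNs) with and without inhibition of EZH2. The genes were chosen by name as the mouse Rbfox, Ptbp, Nova and neuronal Elavl genes: Rbfox1, Rbfox2, Rbfox3, Ptbp1, Ptbp2, Nova1, Nova2, Elavl2, Elavl3 and Elavl4. They are 10 of the 55341 genes listed in each of 6 count tables, and 10 of 10 were among the 16343 genes with enough reads to be tested. No expression value entered the choice of a gene, but the choice was made with earlier results of these libraries known.

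The libraries came from 3 DMSO (vehicle) and 3 GSK-126 cultures, where GSK-126 is a small-molecule inhibitor of the histone methyltransferase EZH2. By the study's methods both groups were granule neuron precursors that had been enriched on a Percoll gradient from CD1-IGS mouse pups near the end of the first postnatal week, plated, and given Cytosine Arabinoside (AraC) against dividing non-neuronal cells. A replicate was a culture from the pooled cerebella of litters, and the inhibitor was added a single time some days before harvest. The labels give the agent and the replicate number, with neither a dose nor a day in culture, and they name the tissue as cerebellum. Poly(A) RNA was sequenced, and the tables held from 8058760 to 12047837 reads over genes per library.

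EZH2 and its relative EZH1 are the enzymes that write H3K27me3, a repressive histone mark. The mark can lie at promoters, over gene bodies and between genes, and at promoters it is known to favor those rich in CG dinucleotides. Rbfox proteins bind a short motif in introns and can promote or block the use of a nearby exon according to where they bind, and Rbfox3 is the antigen known as NeuN, the standard nuclear marker of mature neurons. Ptbp1 represses neuronal exons in precursors and in non-neuronal cells, including an exon of Ptbp2, and the replacement of Ptbp1 by Ptbp2 is a known step of neuronal differentiation. Nova proteins regulate exons of synaptic genes, and the neuronal Elavl (Hu) proteins bind AU-rich and U-rich stretches of transcripts and affect their splicing, stability and translation. The libraries count reads per gene, so they measure the level of each regulator's RNA and not the exons that it controls.

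The promoters of Rbfox1 and Rbfox3, the genes for which a difference passed the test, are shown for their CG content. Each window runs from 250 bases before to 50 bases after a RefSeq transcription start in GRCm38.p6 and is read 5′ to 3′ on the gene's strand, with CG dinucleotides in capitals. The Rbfox1 windows are chr16:5884543-5884842 and chr16:7069585-7069884 on the plus strand, and the Rbfox3 window is chr11:118760992-118761291 on the minus strand. The second Rbfox1 window and the Rbfox3 window lie inside the spans that the GENCODE annotation used here gives these genes, downstream of its outermost starts.
Rbfox1 window 1: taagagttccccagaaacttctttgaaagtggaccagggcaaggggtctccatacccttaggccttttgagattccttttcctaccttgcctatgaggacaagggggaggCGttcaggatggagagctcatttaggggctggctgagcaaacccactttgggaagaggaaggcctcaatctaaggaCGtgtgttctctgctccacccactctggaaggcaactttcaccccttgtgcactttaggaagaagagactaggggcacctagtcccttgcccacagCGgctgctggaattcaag
Rbfox1 window 2: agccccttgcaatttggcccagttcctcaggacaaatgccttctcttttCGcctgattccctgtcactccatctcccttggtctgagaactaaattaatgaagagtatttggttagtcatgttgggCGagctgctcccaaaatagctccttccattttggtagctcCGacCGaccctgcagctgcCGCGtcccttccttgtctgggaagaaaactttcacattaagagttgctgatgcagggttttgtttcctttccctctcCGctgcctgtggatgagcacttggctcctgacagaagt
Rbfox3: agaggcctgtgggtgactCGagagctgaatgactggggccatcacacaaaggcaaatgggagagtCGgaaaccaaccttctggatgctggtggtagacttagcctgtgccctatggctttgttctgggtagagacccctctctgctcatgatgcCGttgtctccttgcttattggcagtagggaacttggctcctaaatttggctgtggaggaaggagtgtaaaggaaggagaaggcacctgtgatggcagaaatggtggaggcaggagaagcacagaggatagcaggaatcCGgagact

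The windows of Rbfox1 held 3 and 7 CG dinucleotides and that of Rbfox3 held 4, beside a median of 7 over all 32851 RefSeq windows of the same 300 bases. At least as many CG dinucleotides were found in 76.7% of all windows for the first Rbfox1 window, in 52.1% for the second and in 68.6% for that of Rbfox3. A CG reads the same on both strands, so each was counted once. Of the 10 genes 9 (all but Rbfox2) had an entry, with 18 windows in all. Ptbp2 had the window with the most CG dinucleotides, at 36, a count reached by 6.23% of all windows. Elavl3 had 29, Ptbp1 22, Nova2 17 and Nova1 14, whereas the 6 windows of Elavl2 held from 10 to 27 and the 4 windows of Elavl4 from 4 to 23. No mark was measured in these tables, and these counts describe the letters alone.

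The levels of the genes were first compared per length, as RPKM (reads scaled to library depth and to the kilobases of merged exon). The order of different genes on this scale depends on the merged exon length, which counts every annotated exon whether it is used or not. In the DMSO libraries Rbfox3 had the highest mean, at 67.5 ± 26.2 RPKM (SD, n = 3), followed by Rbfox2 at 49.3 ± 1.13 RPKM, Elavl3 at 45.4 ± 12.8 RPKM and Ptbp1 at 35.3 ± 4.41 RPKM. The ranges of neighbors in this order overlapped, whereas every value of Rbfox3 and of Rbfox2 lay above every value of Ptbp1. Elavl4 followed at 25.0 ± 1.81 RPKM, and its 3 DMSO values all lay below the 3 of Ptbp1. Rbfox1 had 19.0 ± 6.28 RPKM, overlapping with Elavl4 and above every value of Ptbp2. Ptbp2 (13.2 ± 1.40 RPKM), Nova1 (13.1 ± 1.11 RPKM) and Nova2 (11.5 ± 1.89 RPKM) overlapped with each other. Elavl2 was the lowest, at 2.38 ± 0.57 RPKM, and lay below every value of Nova2.

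In the GSK-126 libraries the mean of Rbfox2, 46.5 ± 3.64 RPKM, stood above that of Rbfox3, 43.5 ± 9.90 RPKM, and Ptbp1 with 40.3 ± 3.00 RPKM stood above Elavl3 with 37.9 ± 6.24 RPKM. The ranges of neighbors among these 4 genes overlapped, so their order within this group is not settled. This overlap does not measure the change from DMSO, which is compared within pairs below. Without division by length (CPM, defined below) the mean of Rbfox2 stood above that of Rbfox3 in both groups. The means were 402 and 393 CPM with DMSO and 379 and 253 CPM with GSK-126, so the order of these genes depends on the length scaling. Elavl4 had 21.2 ± 5.13 RPKM, Nova1 13.0 ± 4.54 RPKM, Rbfox1 12.9 ± 3.48 RPKM, Ptbp2 12.1 ± 1.67 RPKM and Nova2 11.4 ± 2.59 RPKM. Neighbors whose ranges over the 3 libraries did not overlap were Elavl3 and Elavl4, and Nova2 and Elavl2, which had 1.60 ± 0.37 RPKM. The non-neuronal repressor Ptbp1 was thus a high member of the set in both groups.

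**Figure D1:**
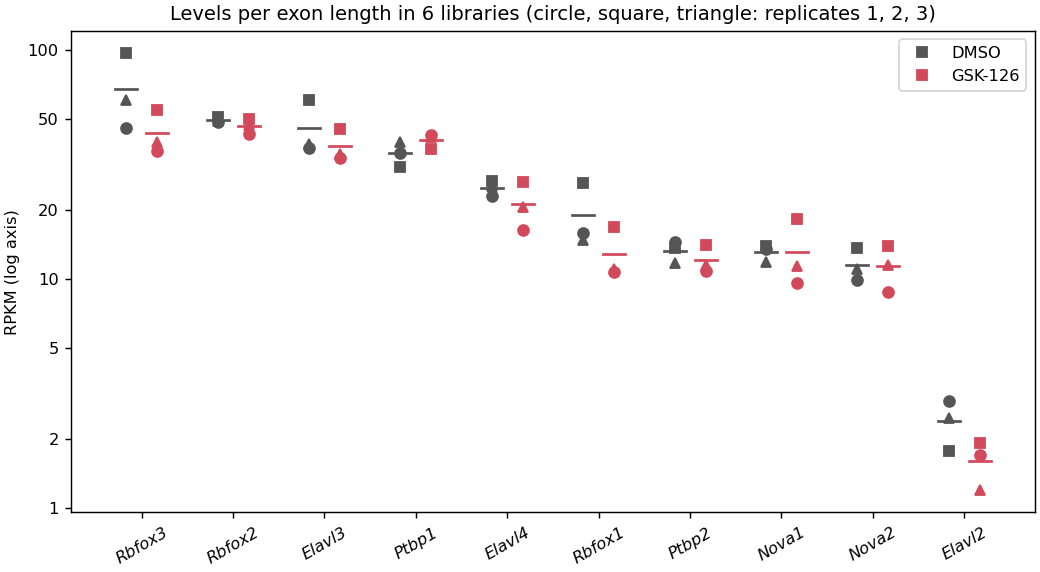
RPKM on a log axis for the 10 genes, ordered by their DMSO mean, with DMSO libraries in grey and GSK-126 libraries in red, 1 symbol per replicate number and a bar at each group's mean. Rbfox3 ranges from 45.7 to 96.6 RPKM with DMSO, and Elavl2 lies below every other gene in each group.

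For the comparison of GSK-126 with DMSO, levels are given as CPM (counts divided by library size, with TMM factors) in replicates 1, 2 and 3. The quasi-likelihood test of edgeR included the replicate number as a block, and p-values were adjusted over all 16343 genes with a threshold of 0.05. Of the 10 genes 2 were called lower and 0 higher, which is read beside the background: 1.42% of all tested genes were called lower, 2.23% higher and 3.65% in either direction. Without the replicate block edgeR called 0 of the 10 genes and 0% of all genes, where 981 genes had an unadjusted p under 0.05, and DESeq2 without the block called 59 genes and 0 of the 10. Both calls therefore rest on comparing libraries within a replicate number. An unadjusted p under 0.05 was found in the fit with the block for 5 of the 10 genes (Rbfox1, Rbfox3, Elavl2, Elavl3 and Elavl4) beside 16.7% of all genes. The median log2 fold change was -0.19 over the 10 genes and -0.002 over all genes tested.

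Rbfox1, which is expressed in neurons, heart and skeletal muscle, was lower with GSK-126 in each pair. The DMSO libraries had 70.0, 115 and 65.0 CPM, and the GSK-126 libraries had 47.0, 74.2 and 48.5 CPM. Replicate 2 was the highest library in both groups, so the ranges of the groups overlapped although every pair showed a lower value under GSK-126. The group means were 83.4 ± 27.6 and 56.6 ± 15.3 CPM (SD, n = 3). Rbfox1 fell by 31.5% in the fit with the block, a log2 fold change of -0.55 ± 0.11 (SE) with a 95% interval from -0.79 to -0.30 and an adjusted p = 0.0248 (edgeR), and the 3 pairs differed by -0.57, -0.63 and -0.42. Without the block the log2 fold change was -0.56 with an adjusted p = 0.825 (edgeR). The gene spans 1526 kb of chromosome 16 (GRCm38 chr16:5885355-7411526, plus strand), and its exons overlap no other annotated gene.

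Rbfox3 had the largest SD of the 10 genes among the DMSO libraries. The DMSO libraries had 266, 562 and 350 CPM, whereas the GSK-126 libraries had 210, 318 and 230 CPM. DMSO replicate 2 stood highest, and GSK-126 replicate 2 lay above DMSO replicate 1. The means were 393 ± 153 and 253 ± 57.6 CPM (SD, n = 3). Rbfox3 fell by 33.5% with the block, with a log2 fold change of -0.59 ± 0.11 (SE), a 95% interval from -0.84 to -0.34 and an adjusted p = 0.0180 (edgeR), and without the block the adjusted p was 0.825 at a log2 fold change of -0.64. The differences of the pairs were -0.34, -0.82 and -0.60. Its exons (GRCm38 chr11:118489762-118911597, minus strand) overlap no other gene.

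The call of these genes depended on which pair of libraries was present. Without replicate 1 both genes were called, Rbfox1 with a log2 fold change of -0.53 (adjusted p = 0.0228, edgeR) and Rbfox3 with -0.71 (adjusted p = 0.00191, edgeR). Without replicate 2 neither was called, at -0.48 (adjusted p = 0.156, edgeR) for Rbfox1 and -0.46 (adjusted p = 0.175, edgeR) for Rbfox3. Without replicate 3 neither was called, at -0.60 (adjusted p = 0.0826, edgeR) and -0.58 (adjusted p = 0.0664, edgeR). The sign of the difference was negative in each of these fits, and 704, 178 and 359 genes in all were called without replicates 1, 2 and 3.

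Rbfox2, the member of the family that is also widely used outside neurons, did not pass the test. It had 395, 412 and 398 CPM with DMSO and 348, 408 and 381 CPM with GSK-126. All 3 pairs were lower under GSK-126, by 0.18, 0.02 and 0.06 on the log2 scale in size. The log2 fold change was -0.09 ± 0.10 (SE) with an adjusted p = 0.731 (edgeR), and its 95% interval from -0.30 to 0.13 still allows a modest change either way. The gene lies at GRCm38 chr15:77078990-77307004, minus strand.

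Within the family the balance was followed as a ratio of RPKM values, which needs no scaling between libraries. The log2 ratio of Rbfox3 to Rbfox2 was 0.38 ± 0.51 in DMSO libraries and -0.12 ± 0.21 in GSK-126 libraries (SD, n = 3), and the paired differences were -0.16, -0.80 and -0.54. This ratio was lower in 3 of 3 pairs with a mean difference of -0.50, and the exact paired permutation test (two-sided) gave p = 0.25, the smallest p that 3 pairs allow, for a ratio that was chosen after its values were seen. The log2 ratio of Rbfox3 to Rbfox1 moved by -0.04 on average, with pairs at 0.24, -0.19 and -0.18 (exact p = 1), with no common direction. As shares of the summed Rbfox RPKM, Rbfox3 made up 48.6 ± 7.11% with DMSO and 42.0 ± 2.61% with GSK-126. Rbfox2 made up 37.6 ± 7.61% and 45.6 ± 3.90%, and Rbfox1 made up 13.8 ± 1.68% and 12.4 ± 1.33%. The summed Rbfox level was 136 ± 33.3 RPKM with DMSO and 103 ± 16.7 RPKM with GSK-126, lower within each pair by 0.30, 0.51 and 0.35 on the log2 scale.

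**Figure D2:**
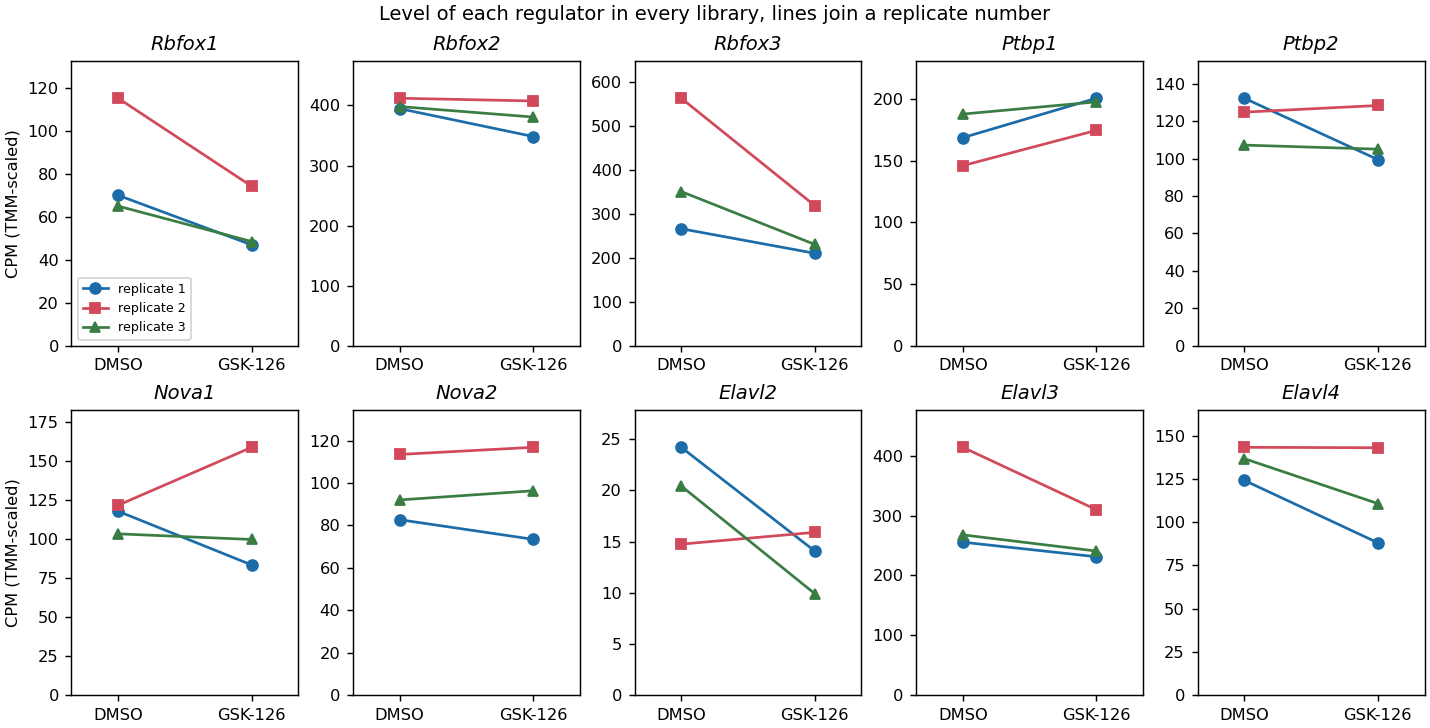
CPM (linear axis from 0) of each of the 10 genes in the 6 libraries, with a line joining the DMSO and GSK-126 library of each replicate number. The lines of Rbfox1 and Rbfox3 slope down in all 3 replicate numbers while replicate 2 stays highest in both groups, and the Nova1, Nova2, Ptbp2 and Elavl2 lines run in both directions.

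Ptbp1 and Ptbp2 did not pass the test. Ptbp1 had 169, 146 and 188 CPM with DMSO and 200, 174 and 197 CPM with GSK-126, and it was the single gene of the 10 that was higher under GSK-126 in 3 of 3 pairs. The difference was 0.19 ± 0.10 (SE) on the log2 scale with a 95% interval from -0.03 to 0.42 and an adjusted p = 0.388 (edgeR). At GRCm38 chr10:79854427-79864771 (plus strand) 20.7% of the exon bases of Ptbp1 overlap genes on the opposite strand, among them the neuronal gene Plppr3, and the strand setting of the counting is not given in the sources used here. Ptbp2, its neuronal paralog, had 132, 125 and 107 CPM with DMSO and 99.4, 128 and 105 CPM with GSK-126. Replicate 1 was lower and the other two differed little. Without replicate 1 the log2 fold change was 0.0060 (adjusted p = 0.985, edgeR). Over all libraries it was -0.13 ± 0.12 (SE) with a 95% interval from -0.40 to 0.13 and an adjusted p = 0.640 (edgeR). Ptbp2 lies at GRCm38 chr3:119718742-119784466, minus strand, and its exons overlap no other gene.

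The balance of the paralogs lay toward Ptbp1 in every library. The log2 ratio of Ptbp2 to Ptbp1 (RPKM) was -1.41 ± 0.31 in DMSO libraries and -1.74 ± 0.30 in GSK-126 libraries (SD, n = 3). Ptbp1 accounted for 72.6 ± 4.12% of the summed Ptbp RPKM with DMSO and for 76.8 ± 3.83% with GSK-126. Without division by exon length its mean share of the reads was 57.9% with DMSO and 63.2% with GSK-126, so the size of the share depends on the lengths used. The pairs differed in their log2 ratio by -0.66, -0.22 and -0.10, a mean of -0.33. An exact paired permutation test (two-sided) gave p = 0.25, which is the smallest p possible with 3 pairs, so this test cannot reach 0.05 in this design.

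The pairs of both Nova genes went in both directions, and neither gene passed the test. Nova1 had 118, 122 and 103 CPM with DMSO and 83.4, 159 and 99.8 CPM with GSK-126, so replicate 1 was lower and replicate 2 higher under the inhibitor. The fitted log2 fold change was -0.05 ± 0.15 (SE) with a 95% interval from -0.38 to 0.28 and an adjusted p = 0.905 (edgeR). Nova2 had 82.7, 114 and 92.0 CPM with DMSO and 73.5, 117 and 96.4 CPM with GSK-126. Its log2 fold change was -0.02 ± 0.11 (SE) with a 95% interval from -0.26 to 0.22 and an adjusted p = 0.957 (edgeR). The log2 ratio of Nova2 to Nova1 (RPKM) was -0.20 ± 0.22 with DMSO and -0.16 ± 0.20 with GSK-126, with an exact p = 1 for the 3 pairs. Nova1 lies at GRCm38 chr12:46694517-46818929 (minus strand), where 3.54% of its exon bases are shared with Gm33869 on the same strand. Nova2 lies at GRCm38 chr7:18925888-18965319 (plus strand), where 31.7% of its exon bases overlap Gm26821 on the other strand, so a part of its reads cannot be assigned with certainty.

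None of the neuronal Elavl genes passed the test after adjustment, and the 3 had negative log2 fold changes. Elavl3, the most abundant of them, had 256, 415 and 268 CPM with DMSO and 231, 310 and 241 CPM with GSK-126. It was lower in 3 of 3 pairs, with a log2 fold change of -0.24 ± 0.10 (SE), a 95% interval from -0.47 to -0.01 and an adjusted p = 0.278 (edgeR). Elavl4 had 124, 143 and 137 CPM with DMSO and 88.1, 143 and 111 CPM with GSK-126, and replicate 2 was level to within 0.003 on the log2 scale. Its log2 fold change was -0.27 ± 0.12 (SE) with a 95% interval from -0.53 to -0.004 and an adjusted p = 0.291 (edgeR). Elavl2 had the fewest reads of the 10 genes, from 87 to 210 per library, at 24.2, 14.8 and 20.4 CPM with DMSO and 14.1, 15.9 and 9.91 CPM with GSK-126. Its log2 fold change of -0.58 lay between those of Rbfox1 and Rbfox3, but its SE of 0.23 was wider, replicate 2 went the other way, and the adjusted p was 0.223 (edgeR). Single replicate numbers moved these values: without replicate 2 Elavl3 was at -0.13 (adjusted p = 0.732, edgeR) and Elavl2 at -0.89 (adjusted p = 0.0861, edgeR), without replicate 3 Elavl2 was at -0.35 (adjusted p = 0.753, edgeR), and without replicate 1 Elavl4 was at -0.15 (adjusted p = 0.523, edgeR).

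The shares of the Elavl genes differed between the groups by less than their spread. Elavl3 made up 61.7 ± 5.43% of the summed Elavl RPKM with DMSO and 62.6 ± 2.09% with GSK-126, and Elavl4 made up 34.9 ± 4.25% and 34.7 ± 2.61%. Elavl2 contributed 3.44 ± 1.32% and 2.66 ± 0.59%. The log2 ratio of Elavl3 to Elavl4 differed by 0.03 on average (exact p = 1), with pairs from -0.42 to 0.35. The summed level was 72.8 ± 13.8 RPKM with DMSO and 60.6 ± 11.4 RPKM with GSK-126, and within the pairs it differed by -0.29, -0.27 and -0.23 on the log2 scale. Elavl2 lies at GRCm38 chr4:91250763-91400785, Elavl4 at chr4:110203722-110351909 and Elavl3 at chr9:22015005-22052023, all on the minus strand, and 3.72% of the exon bases of Elavl3 are shared with Gm49318.

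**Figure D3:**
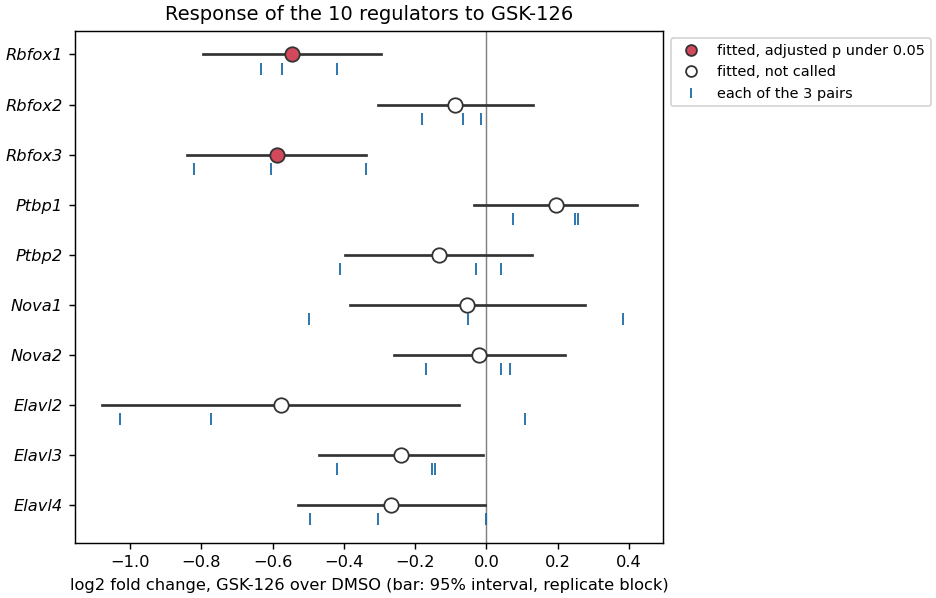
Log2 fold change of GSK-126 over DMSO for each of the 10 genes, with the fitted value (circle) and its 95% interval (bar) from edgeR with the replicate block, and the 3 single pairs as ticks. The intervals of Rbfox1 and Rbfox3 (filled, adjusted p under 0.05) end at -0.30 and -0.34, and Elavl2 has the widest interval.

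Across the set, 6 of the 10 genes had the same sign in 3 of 3 pairs, beside 39.0% of all genes tested. Of these, 5 were lower (Rbfox1, Rbfox2, Rbfox3, Elavl3 and Elavl4), beside 19.3% of all genes, and 1 was higher (Ptbp1). For 0 of the 10 genes were the ranges of the groups apart, beside 10.9% of all genes. By their levels across the 6 libraries, the genes outside the set most like Rbfox3 among 11409 genes with a mean of at least 10 CPM were Mtrex (Pearson r = 0.998 of log2 CPM), Spryd7 (r = 0.995) and Rnf19b (r = 0.994). These are descriptions over 6 libraries that share replicate numbers, and the log2 fold changes of the 3 genes were -0.22, -0.17 and -0.34 with none called.

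The cultures also hold other cells, and markers of several cell types moved between the groups. The 11 granule neuron markers were all detected, and their summed level was 5865, 8215 and 6283 CPM with DMSO and 4044, 6497 and 4811 CPM with GSK-126, lower in each pair and highest in replicate 2 of both groups, as for Rbfox1, Rbfox2, Rbfox3, Elavl3 and Elavl4. Among these markers 5 of 11 were called lower, namely Neurod1, Cbln1, Etv1, Gabra6 and Snap25, beside 1.42% of all genes. No marker of any list was called without the block. Tubb3, which encodes a neuronal tubulin, had a log2 fold change of 0.36 (adjusted p = 0.167, edgeR) and Map2, a dendritic protein gene, one of -0.24 (adjusted p = 0.283, edgeR). The 5 fibroblast markers summed to between 6698 and 8767 CPM with DMSO and between 8801 and 9749 CPM with GSK-126, higher in each pair, and Col1a1 was called higher. The endothelial and mural list (6 of 7 detected) ran from 474 to 745 CPM with DMSO and from 814 to 1015 CPM with GSK-126, higher in each pair, with the mural genes Pdgfrb and Acta2 called higher and Acta2 giving most of the sum. Its endothelial markers did not follow: Cdh5 had a log2 fold change of -0.30 and was lower in 3 of 3 pairs (adjusted p = 0.240, edgeR), Kdr had -0.007, Pecam1 had 1.13 to 3.01 CPM, and Cldn5 had 0 to 22 reads. Microglial markers (7 of 7 detected) ran from 181 to 293 CPM and from 208 to 444 CPM, higher in each pair, with 0 called by edgeR and 2 at an unadjusted p under 0.05. Without replicate 2, the calls of Gabra6, Etv1, Snap25 and Pdgfrb remained, whereas those of Neurod1, Cbln1, Acta2 and Col1a1 did not (adjusted p from 0.0536 to 0.244, edgeR). Without replicate 1 the call of Col1a1 (adjusted p = 0.0546, edgeR) was lost, and without replicate 3 that of Cbln1 (adjusted p = 0.169, edgeR).

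Astrocyte and Bergmann glia markers, which had their lowest sum in replicate 2, ran from 2616 to 7760 CPM with DMSO and from 2603 to 8054 CPM with GSK-126, with 0 of 9 called. Oligodendrocyte lineage markers (9 of 9 detected) ran from 447 to 697 CPM and from 515 to 828 CPM, higher in each pair, with Cspg4 called higher. GABAergic neuron markers (8 of 9 detected) ran from 201 to 268 CPM and from 173 to 202 CPM, lower in each pair, with Slc32a1 called lower and Car8 at 1 to 44 reads. Cycling markers (6 of 8 detected, with Atoh1 and Gli1 at 0 to 7 reads) ran from 275 to 407 CPM and from 310 to 416 CPM, higher in each pair, with 0 called. Replicate 3 was nearly level, at 344 CPM with DMSO and 345 CPM with GSK-126, and the median log2 fold change of the list was 0.02. The calls of Cspg4 (adjusted p = 0.0501, edgeR) and Slc32a1 (adjusted p = 0.130, edgeR) were lost without replicate 2, and that of Slc32a1 also without replicate 3 (adjusted p = 0.248, edgeR). The part of the cell makeup in the calls of Rbfox1 and Rbfox3 and in the values of the other 8 genes was not tested. In bulk libraries fewer cells of a type and less RNA per cell cannot be told apart.

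**Figure D4:**
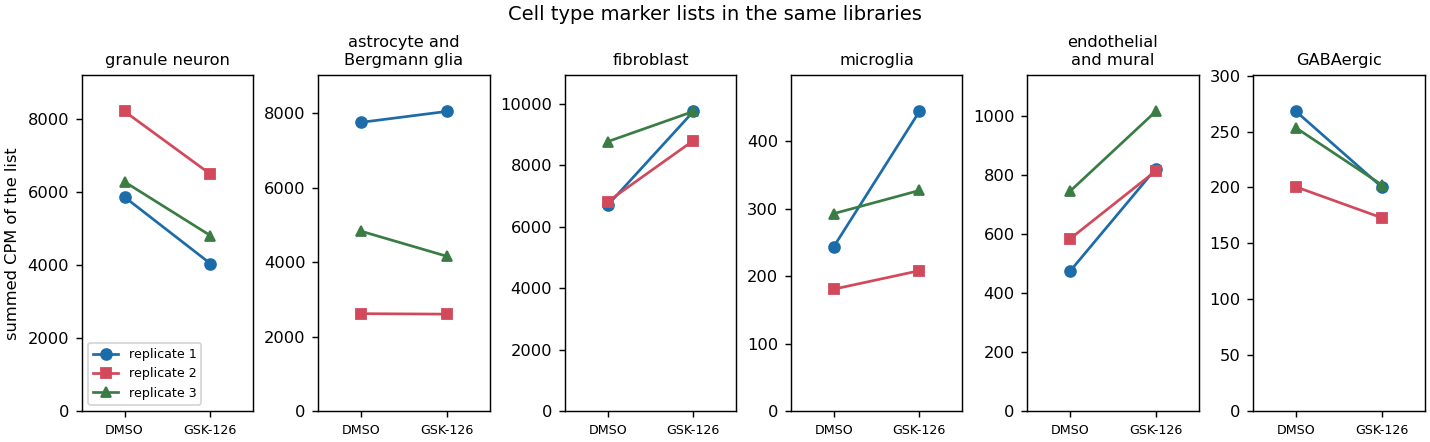
Summed CPM of 6 marker lists in each library (linear axes from 0), with a line joining the DMSO and GSK-126 library of each replicate number. The granule neuron sum goes from 5865 to 4044 CPM in replicate 1 and is lower with GSK-126 in each pair, whereas the fibroblast and microglial sums and the endothelial and mural sum, most of which is the mural gene Acta2, are higher in each pair.

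Other regulators of splicing were then set beside the 10 genes, from lists chosen by name. Of 24 further splicing regulators, many but not all of them tissue-restricted (Celf, Mbnl, Khdrbs, Msi and others), 22 were tested. Among these 2 were called lower, beside 1.42% of all genes, and 0 higher, and the median log2 fold change was -0.01. Mbnl2, which drives the switch from fetal to adult exons in brain, had 334, 489 and 330 CPM with DMSO and 174, 332 and 247 CPM with GSK-126. It fell by 35.8%, a log2 fold change of -0.64 ± 0.12 (SE) with an adjusted p = 0.0143 with the block and 0.824 without it (edgeR). Celf4, a neuronal RNA-binding protein of the Celf family, had 449, 527 and 431 CPM with DMSO and 330, 372 and 317 CPM with GSK-126, with every GSK-126 library below every DMSO library. It fell by 0.46 ± 0.10 (SE) on the log2 scale, with an adjusted p = 0.0253 with the block and 0.806 without it (edgeR). Without replicate 2 neither was called, with an adjusted p = 0.0669 for Mbnl2 and 0.190 for Celf4 (edgeR), and without replicate 3 Celf4 was not (adjusted p = 0.179, edgeR). Without replicate 1 the list had 4 called genes. The most abundant regulators of this list that were not called were Celf2, with a log2 fold change of 0.06, and Qk, a glial splicing regulator, with -0.02.

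The general splicing factors had no called gene, beside 3.65% of all genes called in either direction. At that share, lists of 9 to 22 tested genes can hold no call without differing from the background. Of 15 SR and SR-related proteins (Srsf genes, Tra2a, Tra2b, Srrm1 and Srrm2) 14 were tested and 0 called. Their median log2 fold change was -0.18, and 9 of 14 were lower in 3 of 3 pairs, beside 19.3% of all genes. Srrm2 had -0.10 and Srsf5 had -0.19. Of 23 hnRNP proteins 22 were tested and 0 called, with 8 of 22 lower in 3 of 3 pairs, a median of -0.08 and values of -0.08 for Hnrnpk and -0.12 for Hnrnpa2b1. Among 11 genes whose proteins associate with Rbfox or Ptbp proteins, 9 were tested and 0 called. Of these, 6 of 9 were lower in 3 of 3 pairs, with a median of -0.17. The hnRNP and partner counts of genes lower in 3 of 3 pairs also stand beside 19.3% of all genes. Ddx5, an RNA helicase, had a log2 fold change of -0.29 (adjusted p = 0.145, edgeR) and Hnrnph1 had -0.23 (adjusted p = 0.254, edgeR). In the partner list 1 gene was called without replicate 1, and 1 when low counts were not filtered. Celf1, Srsf1, Hnrnpu and Raver1 were listed at 0 to 6 reads in every library. Since these genes are used by nearly all cells, the tables give no usable value for them, and for Raver1 99.7% of the exon bases are shared with Gm38431 on the same strand.

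Of 28 regulators of mRNA stability and translation 27 were tested, and 2 were called, both higher, beside 2.23% of all genes, with a list median of 0.01. Igf2bp2, which binds and stabilizes growth-related mRNAs, had 20.6, 18.9 and 26.2 CPM with DMSO and 40.1, 35.1 and 49.0 CPM with GSK-126. It rose by 0.92 ± 0.14 (SE) on the log2 scale, with an adjusted p = 0.00674 with the block and 0.465 without it (edgeR). Cpeb1, which controls poly(A) tail length and translation, had 20.5, 12.4 and 26.2 CPM with DMSO and 43.6, 32.9 and 41.7 CPM with GSK-126. It rose by 1.04 ± 0.17 (SE) on the log2 scale, with an adjusted p = 0.00906 with the block and 0.768 without it (edgeR). Both were also called without replicate 1, 2 or 3, with an adjusted p from 0.000475 to 0.0484 (edgeR). In both genes the lowest GSK-126 library lay above the highest DMSO library. Caprin1 had a log2 fold change of 0.06 and Tardbp one of -0.20, with neither called.

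Genes whose transcripts are known targets of the 10 regulators were examined at the level of whole genes. Of 21 such genes 20 were tested, 2 were called lower, beside 1.42% of all genes, and 0 higher. The median log2 fold change was -0.09, and the values ran from -1.09 to 1.26. The highest value was that of Bdnf, which had 12 to 83 reads per library and was not called. Nrxn2 was listed at 0 to 2 reads in every library and was not tested. Snap25, a synaptic vesicle fusion gene that is also in the granule neuron list, had 483, 1207 and 534 CPM with DMSO and 215, 515 and 292 CPM with GSK-126. Its log2 fold change was -1.09 ± 0.11 (SE), with an adjusted p = 0.000718 with the block and 0.814 without it (edgeR). Nrxn3, a presynaptic adhesion gene, had 133, 223 and 120 CPM with DMSO and 76.8, 137 and 87.8 CPM with GSK-126. It fell by 0.65 ± 0.11 (SE) on the log2 scale, with an adjusted p = 0.0110 with the block and 0.825 without it (edgeR). Without replicate 2 Snap25 was called (adjusted p = 0.0111, edgeR), whereas Nrxn3 was not (adjusted p = 0.0668, edgeR), and the list had 5 called genes when low counts were not filtered. Of the uncalled targets with the most reads, Flna, an actin cross-linking gene, had a log2 fold change of 0.38 (adjusted p = 0.0511, edgeR) and Pkm, the pyruvate kinase gene with exons controlled by Ptbp1, one of 0.20 (adjusted p = 0.393, edgeR). Whether the exons of these targets were used differently cannot be read from counts per gene.

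**Figure D5:**
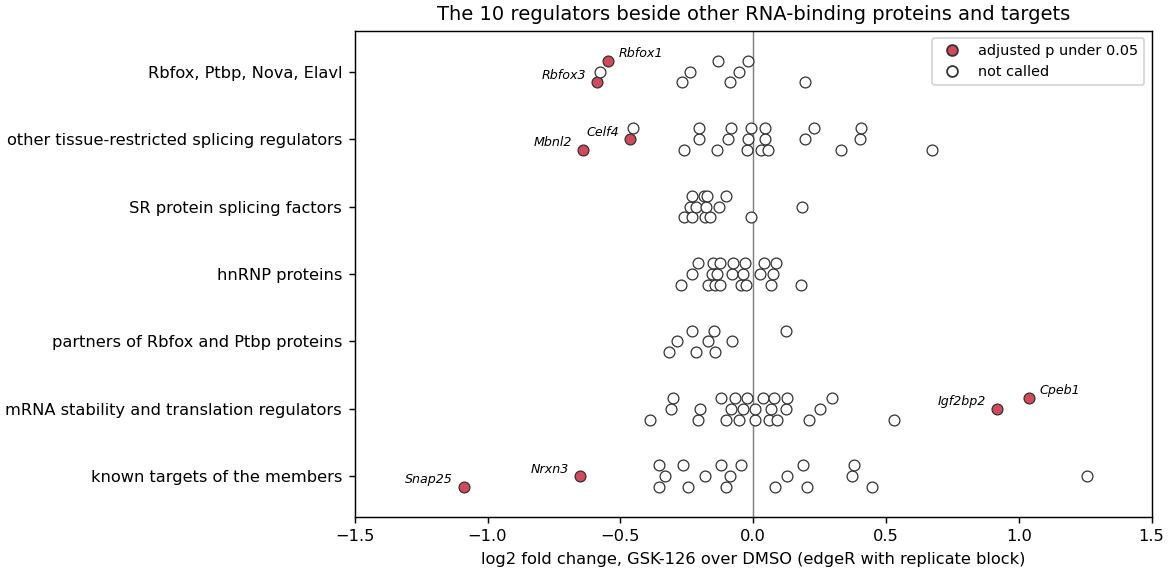
Log2 fold change of GSK-126 over DMSO (edgeR with the replicate block) for each tested gene of the 10 regulators, 5 further lists of RNA-binding proteins and the list of known targets, 1 circle per gene, with called genes filled and named. The SR, hnRNP and partner lists hold no called gene, and Igf2bp2 and Cpeb1 lie at 0.92 and 1.04.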

How the data were processed

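Each of the 6 libraries had its own deposited table of raw counts, in whole reads for each gene, and the authors neither normalized nor pooled them. The submitters' processing notes and the study's methods name Trimmomatic 0.38, STAR 2.7.2b, the mouse genome GRCm38 (mm10) and HTSeq over exons of the GENCODE annotation. The strand setting is not given in the sources used here. Each table ends in 5 summary rows that name no gene and that entered neither the library sizes nor the tests. They include reads over no exon, at 44.8% to 46.7% of the total, whereas reads assigned to genes made up 39.1% to 41.6%.

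Genes were filtered with filterByExpr by group (16343 of 55341 remained), scaled with TMM and tested with the quasi-likelihood test of edgeR 4.0.16 in R 4.3.3 with treatment and replicate number as terms, adjusted by the Benjamini-Hochberg method with a threshold of 0.05. The study's methods name DESeq2 without stating model terms. The replicate block was used because the comparison was defined as paired by replicate number. Deviations from the group means correlated at 0.35, 0.50 and 0.52 for equal numbers and from -0.41 to -0.01 for different ones. Such deviations cancel within a group, so positive values for equal numbers by themselves make the others negative on average. The methods describe a replicate as a culture from pooled litters. P-values of the fit with the block rest on the spread of the differences within 3 replicate numbers, after differences between the numbers are taken out. Those of the fit without the block rest on the spread between 3 cultures a group. In both fits edgeR draws the spread of a gene partly from all tested genes, and not from its own libraries alone. The SEs and intervals given with the fit with the block share this property. They can be narrower than the pairs of a single gene would give, and no interval was computed from those pairs alone. The common biological coefficient of variation was 0.142 with the block and 0.243 without it. No libraries agreed within sampling noise. DESeq2 1.42.0, limma 3.58.1, other scaling, no filter, no block and left-out libraries served as alternatives, and DESeq2 without the block and the Rbfox3 to Rbfox2 ratio were added after seeing the data. The test was checked for recovery of known changes on simulated data. There the libraries of a replicate number shared their deviations by construction, so that check cannot show whether the block is right for these libraries.

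CPM carry TMM factors, pair differences are log2 CPM with a prior count of 2, and RPKM divides by merged exon length. Exon lengths, gene spans and exon overlaps were taken from a GENCODE annotation of GRCm38, whose release may differ from the one used for the counting. PCR duplicates were not marked, so the spread between libraries is the error given. The members and lists were chosen with earlier results of these data known. A gene of the target list and one of the microglial list are not reported here and were taken out of those lists. All 10 members are named, as are the called genes of each further list and its 2 uncalled genes with the highest mean CPM, the called and defining markers, and the 3 genes most like the member with the smallest p. RefSeq gave the promoter sequences.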

Additional observations from a re-analysis of the deposited data

How the results depend on the processing

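The calls of Rbfox1 and Rbfox3 held with DESeq2, limma-voom, RLE scaling and no filter, all with the replicate block, at log2 fold changes from -0.55 to -0.54 for Rbfox1 and from -0.59 to -0.58 for Rbfox3. Without the replicate block 0 of the 10 genes and 0 genes in all were called by edgeR, also with any single library left out, and DESeq2 without the block, an alternative added after seeing the data, called 59 genes and 0 of the 10. With the block and a replicate number left out, from 0 to 2 of the 10 genes and from 178 to 704 genes in all were called, against 597 with every library. Without the filter on low counts 1136 genes were called. The 3 numbers pair the libraries, and no call among the 10 genes other than those of Rbfox1 and Rbfox3 changed between the fits.

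The sign was unstable for genes close to 0. With the block and a replicate number left out, Ptbp2 ran from -0.21 to 0.0060, Nova1 from -0.26 to 0.17 and Nova2 from -0.063 to 0.054. Without the block and with DMSO replicate 1, DMSO replicate 2, GSK-126 replicate 1 or GSK-126 replicate 3 left out, Nova1 was at 0.022, 0.053, 0.18 and 0.081. In such fits Nova2 was at 0.14 without DMSO replicate 2 and at 0.15 without GSK-126 replicate 1, and Elavl3 was at 0.0055 without DMSO replicate 2. Of 150 alternative values of the 10 genes, 120 kept their sign and their side of the threshold, 20 kept their sign and lost the call, and 10 changed sign. The cause was not tested. With 3 pairs, a value such as that of Elavl2, with 87 to 210 reads, is limited by the spread between pairs.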
